A study of Arabidopsis thaliana with 7 samples.

Results

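The transcription factor genes described here were chosen by their symbol, which had to begin with MYB, NAC, ANAC, ERF or bHLH followed by a number. Of 13286 genes compared on the arrays, 6 met that rule. They were the bHLH genes bHLH34, BHLH101, bHLH104, bHLH115 and bHLH121 and the NAC gene NAC014. No MYB and no ERF gene was among them, so the set holds 5 bHLH genes and 1 NAC gene. The RefSeq gene table lists 239 Arabidopsis symbols of this form, 121 of them MYB, 81 NAC, 24 ERF and 13 bHLH. The other 233 have no probe set assigned to them alone in the platform annotation and were not analysed here. In that annotation, none of the 503 probe sets with several genes names a symbol of this form. It lists no gene for 8730 of the 22746 probe sets that are not controls. The absence of these genes is thus a limit of the annotation used and says nothing of what the array can measure.

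Gene expression was measured in Arabidopsis thaliana rosettes on 1-colour Affymetrix ATH1 arrays, in a study that names WRKY transcription factors of group II-A and early senescence of leaves. Whole rosettes were harvested from plants aged 14 days. T-DNA knockouts of WRKY53, of WRKY18 together with WRKY40, of WRKY18, of WRKY40 and of WRKY60 were each sampled after Pst-DC3000, a strain of the leaf pathogen Pseudomonas syringae whose toxin coronatine mimics a jasmonate. Col-0, the wild type, was sampled both after Pst-DC3000 and after the mock treatment, MgCl2. All plants shared a peat-based soil treated with the insecticide imidacloprid and a fertiliser with micronutrients. Each of the 7 groups holds 1 array. Each knockout is represented by 1 insertion line, and the sources used here give neither the number of plants per array nor the time after treatment.

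The basic helix-loop-helix (bHLH) proteins bind DNA as dimers. In Arabidopsis, bHLH34, bHLH104 and bHLH115, with their close relative ILR3 (bHLH105), form subgroup IVc, whose members dimerise with one another and activate the iron deficiency response. bHLH121 is a partner of the IVc proteins in that response. BHLH101 belongs to subgroup Ib, genes that are switched on by iron deficiency downstream of the IVc proteins and that help to drive iron uptake. NAC proteins are a plant-specific family of DNA-binding regulators, and NAC014 is one of them. The bHLH genes found by the symbol rule are thus all known for iron homeostasis, which the rule did not use.

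With 1 array per group there was no replicate error, and no difference given here was tested against one. The deposited values are MAS5 signals on a linear scale, and signals of different genes were not compared. A floor of 22.1 was set before ratios were taken, which is the 40th percentile of signal averaged over the arrays. A gene was treated as measured if its mean signal reached the floor, which held for 7259 genes and for 5 of the 6 members. A gene was counted as different where the floored signals of a pair of arrays differed at least 2-fold. In whole rosettes, fewer cells of a type and less RNA per cell cannot be told apart.

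The targeted gene WRKY53 lay below the floor on the wrky53 array, at 3.07 against 107 in the wild type after Pst. The annotation assigns no probe set to WRKY18, WRKY40 or WRKY60 alone, so those labels were not checked. The leaf genes RCA, PRK and SBPASE had signals between 962 and 5865 on the 7 arrays, and the root hair gene EXPA7 lay below the floor on all of them. The other 5 of 8 leaf markers, 3 of 4 root markers and all 3 flower markers have no probe set assigned to them alone. The wrky60 array stood apart. Its spike-in controls had a median of 7.22-fold those of the other arrays, its 25S ribosomal RNA probe set reached 14546 where the others spanned 1188 to 2947, and its 3' to 5' signal ratio for ubiquitin was 2.77 against 1.22 to 1.37. Its values are therefore given separately.

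BHLH101 lay below the floor in every group. Its signal was 1.08 on the wrky53 array, 3.50 (3.4999) on the wrky18 wrky40 double mutant array, 0.768 on wrky18, 1.04 on wrky40 and 2.50 (2.496) on wrky60, against 1.24 in the wild type after Pst. The mock-treated wild type had 1.17. All 7 values lie below the floor, so no fold is given and their order is not read. The other 3 subgroup Ib genes of the fixed list, bHLH038, bHLH039 and bHLH100, have no probe set of their own in the annotation.

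The bHLH104 signal was 210 (209.6) for wrky53, 269 on the double mutant array, 174 on wrky18, 225 on wrky40 and 197 on wrky60, against 214 in the wild type after Pst and 215 in the mock-treated wild type. The wild-type arrays were nearly equal, the double mutant array was the highest of the 7 and the wrky18 array the lowest.

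The bHLH121 signal was 216 for wrky53, 198 on the double mutant array, 134 on wrky18, 208 on wrky40 and 95.1 on wrky60, against 206 in the wild type after Pst and 179 in the mock-treated wild type. Apart from wrky18 and wrky60, the signals lie between 179 and 216, and the wrky18 and wrky60 arrays lie below them.

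The bHLH115 signal was 121 for wrky53, 105 (104.7) on the double mutant array, 122 on wrky18, 86.1 on wrky40 and 297 on wrky60, against 105 in the wild type after Pst and 83.4 in the mock-treated wild type. The wrky60 array was far above the other 6, which spanned 83.4 to 122.

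The bHLH34 signal was 29.2 for wrky53, 36.5 on the double mutant array, 26.1 on wrky18, 39.6 on wrky40 and 26.4 on wrky60, against 34.5 in the wild type after Pst and 22.8 in the mock-treated wild type. All of these lie above the floor, the mock array by less than 1 signal unit.

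The NAC014 signal was 59.6 for wrky53, 51.8 on the double mutant array, 56.2 on wrky18, 41.4 on wrky40 and 5.71 on wrky60, against 54.4 in the wild type after Pst and 46.8 in the mock-treated wild type. It was above the floor on 6 arrays and below it on the wrky60 array.

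**Figure D1:**
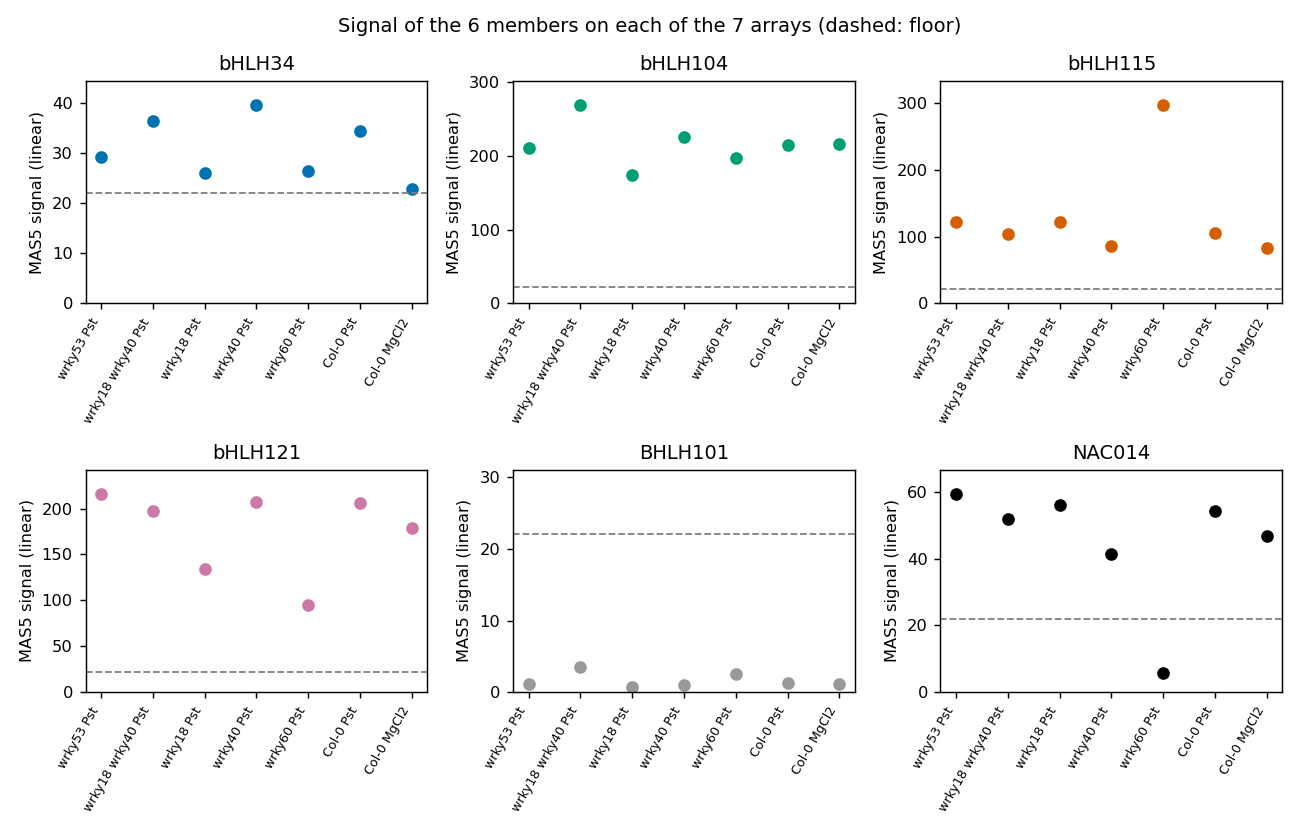
Deposited MAS5 signal (linear, vertical axis from 0) of each of the 6 genes on the 7 arrays, 1 point per array, with the floor of 22.1 as a dashed line. BHLH101 lies below the floor on all 7 arrays, and the wrky60 array holds the highest bHLH115 signal (297) and the lowest bHLH121 (95.1) and NAC014 (5.71) signals.

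The wild type after Pst was compared with the mock-treated wild type to describe the response to the bacterium. No member differed 2-fold, and 4 of the 5 measured members had somewhat higher signals after Pst. Of all genes, 2.08% differed at least 2-fold in this comparison, a share at which fewer than 1 of 6 would pass. bHLH34 was 1.51-fold higher after Pst (log2 ratio 0.59), with 11.8% of measured genes differing by more in either direction. bHLH115 was 1.26-fold, NAC014 1.16-fold and bHLH121 1.15-fold higher, and bHLH104 had a log2 ratio of -0.01. The 4 measured bHLH members had a median log2 ratio of 0.27, against 0.01 for all measured genes. The bHLH34 value rests on a mock signal near the floor. With the floor at the 60th percentile of signal, 60.6, all signals of bHLH34 and of NAC014 fell below the floor and gave no ratio.

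The fixed lists named 134 genes of the MYB, NAC, ERF and bHLH families, including well-known members with other symbols. Only 14 of them have a probe set of their own, 4 of which are members by symbol. Of the other 10, 9 were measured. The gene of this group that passed 2-fold after Pst was NAI1, a bHLH gene required for endoplasmic reticulum bodies. NAI1 had a signal of 182 in the wild type after Pst, against 21.6 in the mock-treated wild type, which is below the floor, so it was at least 8.23-fold higher. It was chosen for the list with this result known. The other 8 had log2 ratios from -0.62 for LEP, an ERF-family gene, to 0.65 for SPT, a bHLH gene of fruit development that was named after its value was seen.

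Relatives tied to jasmonate or iron by function lay inside 2-fold. MYC3, a bHLH activator of jasmonate responses, had a signal of 233 in the wild type after Pst, against 169 in the mock-treated wild type, a log2 ratio of 0.46. MYC4, of the same group, had 0.31, and was named after its value was seen. ILR3, the fourth gene of subgroup IVc, had a signal of 326 after Pst against 309 after mock treatment, a log2 ratio of 0.08. PYE, a bHLH regulator of iron homeostasis that acts with ILR3, had 48.1 after Pst against 54.6 after mock treatment, a log2 ratio of -0.18. FAMA, which directs guard cell formation, had 0.14, and SPCH, which starts the stomatal lineage and was also named after its value was seen, -0.30.

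**Figure D2:**
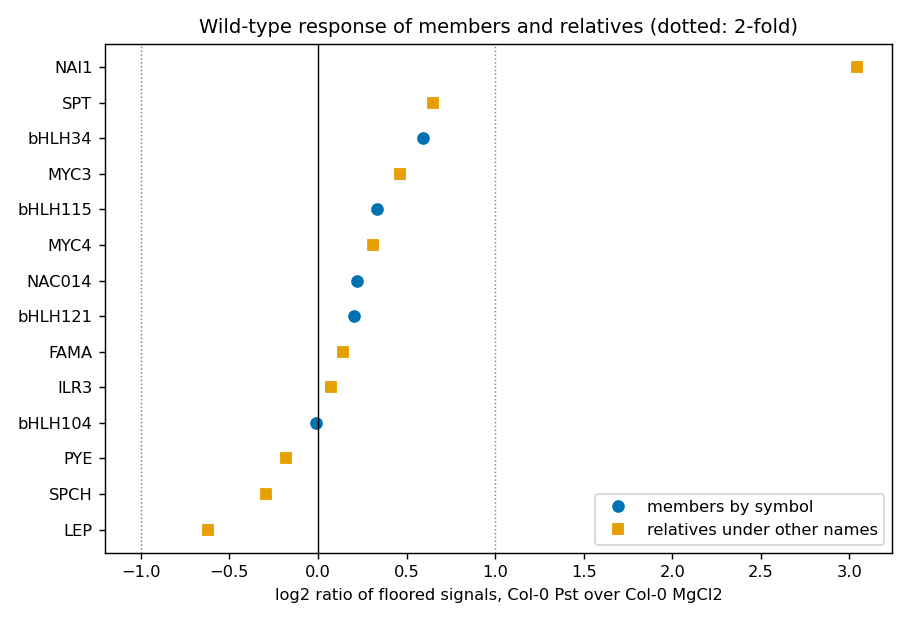
Log2 ratio of floored signals in the wild type after Pst over the mock-treated wild type (horizontal axis) for the 5 measured members (circles) and 9 measured relatives under other names (squares), with 2-fold as dotted lines. NAI1 lies at 3.04, a lower bound, and the other 13 genes lie between -0.62 and 0.65.

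Each mutant after Pst was then compared with the wild type after Pst. These comparisons share the wild-type Pst array, so its own error enters all of them. On the wrky53 array no member differed 2-fold, where 0.632% of all genes did. The measured members had log2 ratios from -0.24, for bHLH34, to 0.21, for bHLH115. The bHLH median was 0.02, equal to that of all measured genes. Among the 9 measured relatives, 0 differed 2-fold, and their log2 ratios ran from -0.56, for SPT, to 0.47, for SPCH. MYC3 had a signal of 318 in wrky53 against 233 in the wild type after Pst, a log2 ratio of 0.45, NAI1 had 0.29 and the iron regulators ILR3 and PYE had 0.07 and 0.05.

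On the wrky18 array 3 of the 4 measured bHLH members had lower signals than the wild type. No member differed 2-fold, where 0.429% of all genes did. bHLH121 was 1.54-fold lower (log2 ratio -0.62), with 6.94% of measured genes differing by more. bHLH34 was 1.32-fold lower and bHLH104 1.23-fold lower. bHLH115 was 1.16-fold higher, and its relative ILR3 had a signal of 369 against 326, a log2 ratio of 0.18. The 4 IVc genes thus lay on both sides of the wild type. The 9 relatives, ILR3 included, had log2 ratios from -0.21, for SPT, to 0.56, for SPCH. The bHLH median was -0.35, against -0.04 for all measured genes, and NAC014 had a ratio of 0.05. On this array the 25S ribosomal RNA control was the lowest of the 7 (1188), and the spike-in median was 1.28-fold that of the others, the highest after wrky60. Whether these bear on the members' ratios was not tested.

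On the wrky40 array no member differed 2-fold, where 0.143% of all genes did. NAC014 was 1.31-fold lower (log2 ratio -0.39), with 13.6% of measured genes differing by more, and bHLH115 was 1.22-fold lower. bHLH34 was 1.15-fold higher, and bHLH104 and bHLH121 had log2 ratios of 0.08 and 0.01. The bHLH median was 0.04, against 0.00 for all measured genes. The 9 relatives had log2 ratios from -0.44, for FAMA, to 0.36, for SPT.

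In the wrky18 wrky40 double mutant the member furthest from the wild type was bHLH104. No member differed 2-fold, where 0.798% of all genes did. bHLH104 was 1.26-fold higher (log2 ratio 0.33), and the other 4 measured members had log2 ratios from -0.07 to 0.08. The bHLH median was 0.04, against -0.04 for all measured genes. The 9 relatives had log2 ratios of floored signals from -0.41, for SPT, to 0.28, for SPCH, with NAI1 at -0.38 and PYE at -0.09. LEP was below the floor on the double mutant array, at 12.8, so its ratio of -0.255 is an upper bound.

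Set against the wrky18 single mutant, the double mutant had higher signals for bHLH104, bHLH121 and bHLH34. The same wrky18 array was set against the wild type above, so its own error enters both comparisons. For bHLH121 and bHLH34 the double mutant was close to the wild type, with log2 ratios of -0.06 and 0.08, where wrky18 had -0.62 and -0.40. bHLH104 was 1.55-fold higher in the double mutant (269 against 174), with 9.93% of measured genes differing by more. bHLH121 was 1.47-fold higher (198 against 134) and bHLH34 1.4-fold higher (36.5 against 26.1). bHLH115 was 1.16-fold lower. The 9 relatives had log2 ratios from -0.70, for LEP, to -0.02, for MYC4, with ILR3 at -0.28. The LEP signal of 12.8 on the double mutant array is below the floor, so its ratio is -0.70 or lower here and -0.22 or lower against wrky40. The bHLH median was 0.52, against 0 for all measured genes. No member differed 2-fold, where 0.933% of all genes did. Against the wrky40 single mutant, no member differed 2-fold, where 0.519% of all genes did. The log2 ratios of the double mutant over wrky40 were 0.32 for NAC014, 0.28 for bHLH115, 0.25 for bHLH104, -0.07 for bHLH121 and -0.12 for bHLH34, and those of the 9 relatives ran from -0.77, for SPT, to 0.53, for FAMA.

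**Figure D3:**
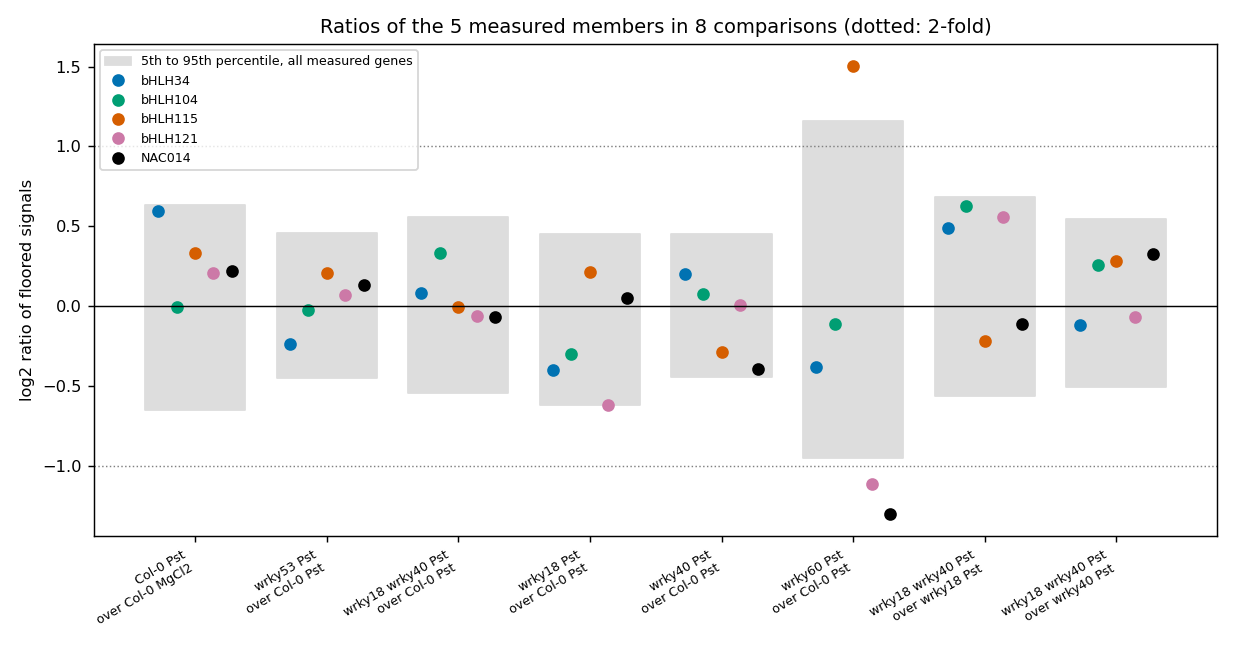
Log2 ratios of floored signals (vertical axis) of the 5 measured members in the 8 comparisons, with 2-fold as dotted lines and the 5th to 95th percentile of all 7259 measured genes as grey bars. All members lie inside 2-fold except bHLH115, bHLH121 and NAC014 in the wrky60 comparison.

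Over the 5 Pst arrays other than wrky60, bHLH121 spanned 1.61-fold between its highest signal, on wrky53, and its lowest, on wrky18. bHLH104 spanned 1.55-fold, bHLH34 1.52-fold, NAC014 1.44-fold and bHLH115 1.41-fold, and the median over all measured genes was 1.404-fold. For bHLH34, bHLH104 and bHLH121 the lowest of these arrays was wrky18. For bHLH115 wrky18 was the highest and wrky40 the lowest, and wrky40 was the lowest for NAC014 too. Of measured genes, 25.8% spanned more than bHLH121 and 48.5% more than bHLH115.

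On the wrky60 array 3 of the 6 members differed 2-fold from the wild type after Pst, where 8.77% of all genes did, 6.41% as higher and 2.36% as lower genes. Among measured genes the shares were 11.9%, 7.56% and 4.31%. bHLH115 was 2.83-fold higher, with a signal of 297 against 105, and 3.02% of measured genes differed by more. bHLH121 was 2.17-fold lower, with 95.1 against 206. NAC014 was at least 2.46-fold lower, with 5.71, below the floor, against 54.4. The other measured members, bHLH34 and bHLH104, had log2 ratios of -0.38 and -0.12. The 9 relatives had log2 ratios of floored signals from -0.55, for MYC4, to 0.38, for FAMA, with ILR3 at -0.40. SPCH was below the floor on the wrky60 array, at 17.9, so its ratio of -0.27 is an upper bound. Within subgroup IVc, bHLH115 thus lay above the wild type while the signals of the other 3 genes lay below it. For bHLH104 this did not hold with cyclic loess scaling, where its log2 ratio was 0.05. The bHLH34 signal of 26.4 is below the 40th percentile of the wrky60 array itself, 31.3, so bHLH34 is not read as lowered there.

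With the median of the other mutant arrays in place of the wild type, the wrky60 log2 ratios were 1.400 for bHLH115, -1.09 for bHLH121 and -1.29 for NAC014. Spike-in, ribosomal RNA and 3' to 5' controls stood apart on the wrky60 array, and its 40th percentile was 31.3 where the other 6 arrays reached no more than 21.6. The GAPDH 3' to 5' ratio was 1.71 on it against 0.863 to 1.098 on the other arrays, while that of actin was 1.79, inside the range of 1.63 to 1.92 elsewhere. The part of these in the members' ratios was not tested. Without the wrky60 array, no member differed 2-fold in any of the other 7 comparisons.

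**Figure D4:**
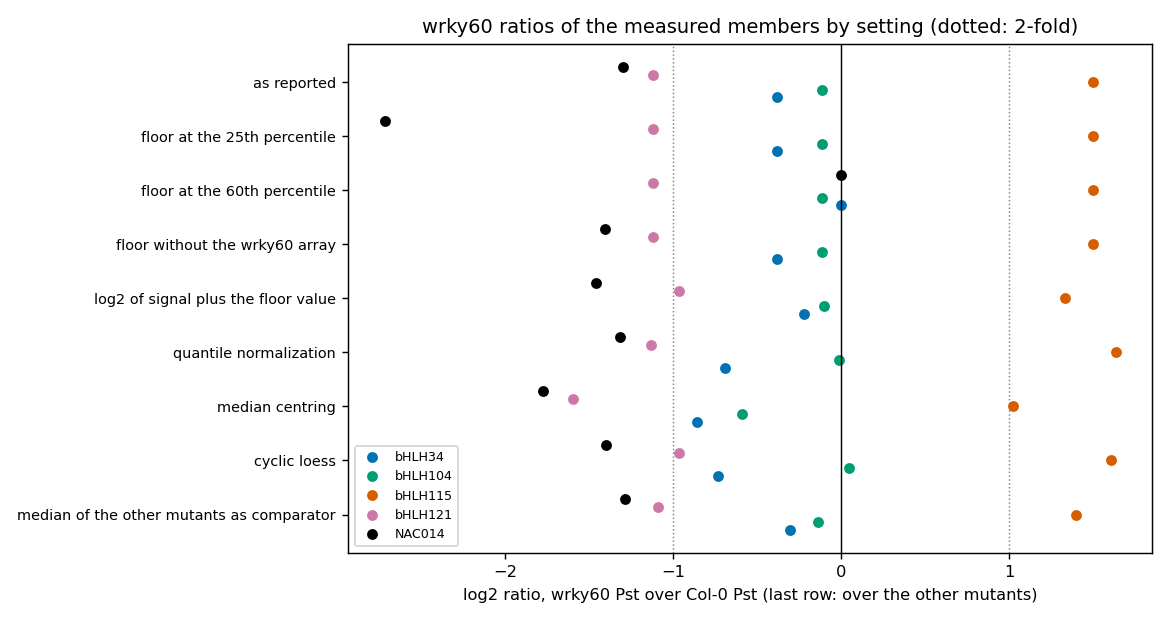
Log2 ratio of the wrky60 array over the wild type after Pst (horizontal axis) for the 5 measured members under each floor, scaling and comparator (rows), with 2-fold as dotted lines. bHLH115 stays above 1 in all 9 rows, bHLH121 lies between -1.60 and -0.96, and NAC014 reaches 0 with the highest floor.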

How the data were processed

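RNA from 7 groups of 1 array each was compared. The authors deposited linear signal intensities from MAS5, per the submitters' processing notes, which name no version. MAS5 combines a probe set's probes into 1 value and brings all arrays to the same trimmed mean. Intensities were used as deposited.

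Of 22810 probe sets, 64 were controls. The platform annotation gave 13513 of the others 1 gene, of which 13436 matched the TAIR10.1 gene table, used for names only. Keeping the brightest probe set per gene left 13286 genes; each member had 1 probe set. Signals below the floor of 22.1 were set to it before log2.

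Neither p-values nor standard errors were computed, because each group holds 1 array, and their number limits the precision. The members and lists were chosen with earlier results of these data known. The rule for named genes took members at 2-fold, those per family with the highest signal, widest range or most extreme ratios, which came to all members, and up to 4 measured genes per fixed list by mean signal. MYC4, SPT, SPCH, EXPA7, AT1G22490, IMA1, BTSL1 and BTSL2 were named outside it, after their values were seen. A list of iron genes was added after seeing the data. Promoter motifs and sequences were not analysed here. The functions were run on the wild-type Pst signals with 3-fold changes planted in 200 genes well above the floor and no noise. All 200 were found, which checks the arithmetic only. Alternatives were other floors, scalings (quantile, median centring, cyclic loess), comparators, probe set summaries and symbol sources. Results were taken as moved where a count or a gene's fold shifted beyond 1.5 times or a median log2 ratio beyond 0.25. The tools were R 4.3.3 with limma 3.58.1 and Python 3.11.15 with pandas 2.3.3 and numpy 2.4.6.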

Additional observations from a re-analysis of the deposited data

How the results depend on the processing

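The count of members at 2-fold was 0 in both directions in the 7 comparisons that do not set the wrky60 array against the wild type, under every floor, scaling, probe set summary and symbol source run. It was also 0 for wrky53, wrky18, wrky40 and the double mutant against the median of the other mutants, which includes the wrky60 array. In the wrky60 comparison 1 member was higher under every one of these settings and with that comparator, and 2 were lower except in 3 cases. With the floor at the 60th percentile, with log2 of signal plus the floor value, and with cyclic loess, 1 was lower. The share of all genes at 2-fold was 2.02%, 7.74% and 5.4% in these, 22.6% with the floor at the 25th percentile and 10.8% with median centring, against 8.77% as reported, so like counts of members stand against unlike backgrounds. With the floor at the 60th percentile the NAC014 signals all fell below it, and in the other 2 of these cases bHLH121 had a log2 ratio of -0.96. With the floor at the 25th percentile NAC014 had -2.72 or lower. The bHLH median for wrky60 was -0.73 with median centring, where the median of all measured genes was -0.47, against 0.01 as deposited. The bHLH median of the double mutant was 0.32 with the median of the other mutants as comparator. That comparator includes the wrky18 and wrky60 arrays, on which bHLH34, bHLH104 and bHLH121 had their lowest signals after Pst. The cause of those low signals was not tested. bHLH104 had 0.05 on the wrky60 array with cyclic loess, against -0.12 as deposited. Counting members by synonym too added ILR3 and AT1G22490 (bHLH94), of which the second lay below the floor on all arrays, and added no gene at 2-fold. This, the floor without the wrky60 array and quantile normalization without it were chosen after seeing the data. No paired analysis was possible because each group holds 1 array. The small number of arrays and signals near the floor, those of bHLH34 and NAC014 above all, limit what can be read.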

Other observations

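A list of 31 genes of iron uptake, transport and storage, written after the members' values had been seen, held 4 genes with a probe set of their own, of which 1 was measured. This was IMA1, which encodes a small peptide of the iron deficiency response. Its signal was 26.7 on the wrky53 array, 16.6 on the double mutant array, 20.7 on wrky18, 17.4 on wrky40 and 79.6 on wrky60, against 27.98 in the wild type after Pst and 22.5 in the mock-treated wild type. The wrky60 array was thus the highest for IMA1, with a log2 ratio of 1.51 to the wild type after Pst. The mean IMA1 signal reached the floor of 22.1 only with the wrky60 array included. IMA1 therefore counted as measured through the array on which it was high, and its value is not read as a match to bHLH115. In that comparison 7.56% of measured genes were at least 2-fold higher, and the controls of the wrky60 array stood apart. The double mutant, wrky18 and wrky40 signals were below the floor. BTSL1, which encodes a ubiquitin ligase of the iron response, lay below the floor on all 7 arrays, and BTSL2 was above it on the wrky60 array alone, at 30.9. That signal is still below the 40th percentile of the wrky60 array itself, 31.3, so BTSL2 is not read as raised there.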
